A study of Rattus norvegicus with 53 samples.

Results

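Described here are 6 genes of the red-cell lineage, Alas2, Slc4a1, Kel, Xk, Tmod1 and Hemgn, in cultures of rat peripheral blood mononuclear cells (PBMC). They were taken by symbol from the array annotation, which placed 9 probe sets on them out of 31042 probe sets tested, so that they are 6 of the 14217 genes with a named probe set. The genes were chosen from measured values, their higher or lower levels in earlier results of these same arrays, so the differences between array clusters and between DRlyp/lyp and autologous serum are given below as descriptions, without a test. In the study, PBMC of healthy male Brown Norway (BN) rats aged 180 days were cultured for 6 h in medium with 20% serum, which the protocols also call plasma, and each of the 53 cultures was read on 1 Affymetrix rat array. The serum came from BioBreeding rats, a model of autoimmune diabetes, or from BN rats, also aged 180 days. The question was which transcripts a serum induces in cells that are otherwise alike.

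There were 8 kinds of culture, all with BN cells, which differed by design in the added serum and in whether IL-1RA or IL-1B was put into it. In 6 cultures the serum came from DRlyp/lyp rats, the diabetes-prone lymphopenic BioBreeding line, that had been injected with human IL-1 receptor antagonist (IL-1RA) at 350 ug/kg/day for 10 days from day 30 and were bled at day 40. In 6 further cultures it came from day 40 DRlyp/lyp rats given saline (PBS) on the same schedule. Sample labels of the IL-1RA set read as if the antagonist had been put into the serum, whereas the design text describes treated rats, and that text is followed. The other sera were day 60 DRlyp/lyp serum with IL-1RA added in vitro (4 cultures), day 60 DRlyp/lyp serum (4 cultures), day 60 serum of DR+/+ rats, the diabetes-resistant BioBreeding line (4 cultures), autologous BN serum with IL-1B added (4 cultures), allogeneic BN serum (15 cultures) and autologous BN serum (10 cultures). Replicates are cultures with separate labels, which do not say whether their cells came from separate rats, so p-values measure only the spread between these arrays.

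The cells of the red lineage pass from nucleated erythroblasts, which make globin, heme and the proteins of the red-cell membrane, to reticulocytes, which have lost the nucleus but still hold RNA, and then to red cells. Much of this programme is driven by the transcription factors Gata1, which binds DNA words with GATA at their core, and Klf1, which binds CACCC-type words. In preparing PBMC on a density gradient, red cells are meant to sediment away from the mononuclear layer. In bulk RNA, fewer cells of a type and less RNA per cell cannot be told apart.

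Alas2 encodes the erythroid aminolevulinate synthase, which starts heme synthesis and limits its rate. Slc4a1 encodes the anion exchanger that swaps chloride for bicarbonate across the red-cell membrane and anchors its skeleton. Kel encodes the Kell blood group endopeptidase, and Xk the membrane protein joined to Kell on human red cells. Tmod1 encodes tropomodulin, which caps the short actin filaments of the membrane skeleton, and Hemgn encodes hemogen, a nuclear protein of blood-forming and erythroid cells. In the rat assembly GRCr8 of RefSeq, Alas2 and Xk lie on chromosome X, Kel on chromosome 4 and Slc4a1 on chromosome 10. Tmod1 and Hemgn are near neighbours on chromosome 5, with 285664 bases and 4 protein-coding genes between them.

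Because most of the members moved together across arrays, their promoters were searched for GATA words. The word AGATAA was looked for, along with TGATAA as well as AGATAG and the related TGATAG, 4 words in all, on both strands in the 250 bases before each RefSeq start. At least 1 of them was present before a start of Alas2, Kel and Hemgn, and also in 27.0% of all 33469 such promoters. The stretches that hold a word are shown for these genes, each 60 bases, 5′ to 3′ on the gene's own strand, with the word in capitals. Alas2 has it at chrX:22895287-22895346 (plus strand, word starting 136 bases before the listed start), Hemgn at chr5:65485842-65485901 (minus strand, 53 bases before the second of its 2 listed starts) and Kel at chr4:71551857-71551916 (minus strand, 116 bases before the listed start, read here as the reverse complement of AGATAG). The listed starts of Alas2 and Kel lie inside the gene spans, chrX:22890650-22914046 and chr4:71534882-71552297, and not at their outer ends.
Alas2: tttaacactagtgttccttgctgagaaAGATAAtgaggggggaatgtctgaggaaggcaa
Hemgn: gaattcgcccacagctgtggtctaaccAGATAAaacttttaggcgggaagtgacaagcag
Kel: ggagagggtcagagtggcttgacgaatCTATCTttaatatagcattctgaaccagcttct
Hemgn also had a TGATAA word 94 bases before that start. Tmod1 had none of the 4 words in its window but 4 matches to CCNCNCCC on either strand, a pattern found in 42.8% of promoters, and the match nearest the start is shown at chr5:65111995-65112054 (plus strand, 40 bases before the start).
Tmod1: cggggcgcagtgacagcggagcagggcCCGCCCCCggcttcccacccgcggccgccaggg
The window of Xk had neither, and the first start of Hemgn had 1 match to CCNCNCCC. The promoter of Slc4a1 was not analysed here. A match describes letters and is no evidence of binding in these cells.

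The levels are log2 expression values from RMA, with each unit a doubling. Alas2 averaged 12.81 over the 53 arrays, above 99.8% of probe sets. The probe set averages were 9.38 for Hemgn, 9.03 and 7.60 for the pair on Slc4a1, 8.30 and 6.27 for the pair on Tmod1 and 8.08 and 4.12 for the pair on Kel. Xk, at 4.59, stood above only 33.9% of probe sets, and with the dimmer Kel probe set it lay where RMA values are near background and differences are compressed. Each gene is represented below by its brighter probe set. The deviations of the 2 probe sets of a gene from their group means correlated at r = 0.98 for Tmod1, 0.83 for Slc4a1 and 0.49 for Kel over the 21 arrays of the first cluster defined next, and at 0.75, 0.74 and 0.46 over the 32 arrays of the second.

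By their expression values the arrays formed 2 clusters, for which no label gives a source. Clustering left out 103 erythroid probe sets, and put 21 arrays in the first cluster and 32 in the second. The first cluster holds all 12 day 40 cultures, autologous replicates 1 to 6 and allogeneic replicates 1 to 3. The second holds all day 60 cultures, those with IL-1B, autologous replicates 7 to 10 and allogeneic replicates 4 to 15. Serum donor age and cluster therefore cannot be told apart for the BioBreeding sera, and comparisons between sera are made only within a cluster. Between BioBreeding and BN serum, donor strain and donor age differ together. The 3′ minus 5′ difference of the beta-actin control probe sets, a measure of RNA length, had a median of 3.64 in the first cluster and 2.59 in the second.

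Of the 6 genes, 5 were lower in the first cluster when autologous BN cultures, which had the same kind of serum in both, were set side by side. Hemgn averaged 7.91 ± 1.42 in the first cluster and 10.27 ± 0.45 in the second (SD, n = 6 and n = 4). Its first-cluster values were 10.01, 8.14, 7.75, 8.05, 5.55 and 7.96 in replicates 1 to 6, against 10.51, 9.87, 9.91 and 10.77 in replicates 7 to 10. Only replicate 1 of the first cluster reached the range of the second, and the mean difference was -2.35.

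Alas2 in the same arrays had a lowest, median and highest value of 10.35, 12.15 and 13.20 in the first cluster, against 13.50, 13.46, 13.72 and 13.56 in the second. For this enzyme the clusters did not overlap in autologous serum, and the first cluster was far more spread out than the second. The mean difference of Alas2 was -1.54 and that of Kel -2.18. Tmod1 differed by -1.91 and Slc4a1 by -0.98, while Xk, the dim gene of the set, differed by +0.33. The median over the 6 genes was -1.72, beside -0.16 over all 14217 genes.

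Allogeneic BN cultures, the other serum present in both clusters, showed differences of the same sign for each of the 6 genes. They were -1.83 for Hemgn, -1.73 for Slc4a1, -1.49 for Kel, -1.09 for Tmod1, -0.99 for Alas2 and +0.01 for Xk, with a median of -1.29 beside -0.07 over all genes. Xk thus had almost the same mean in both clusters, 4.57 in the first and 4.56 in the second (n = 3 and n = 12).

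**Figure D1:**
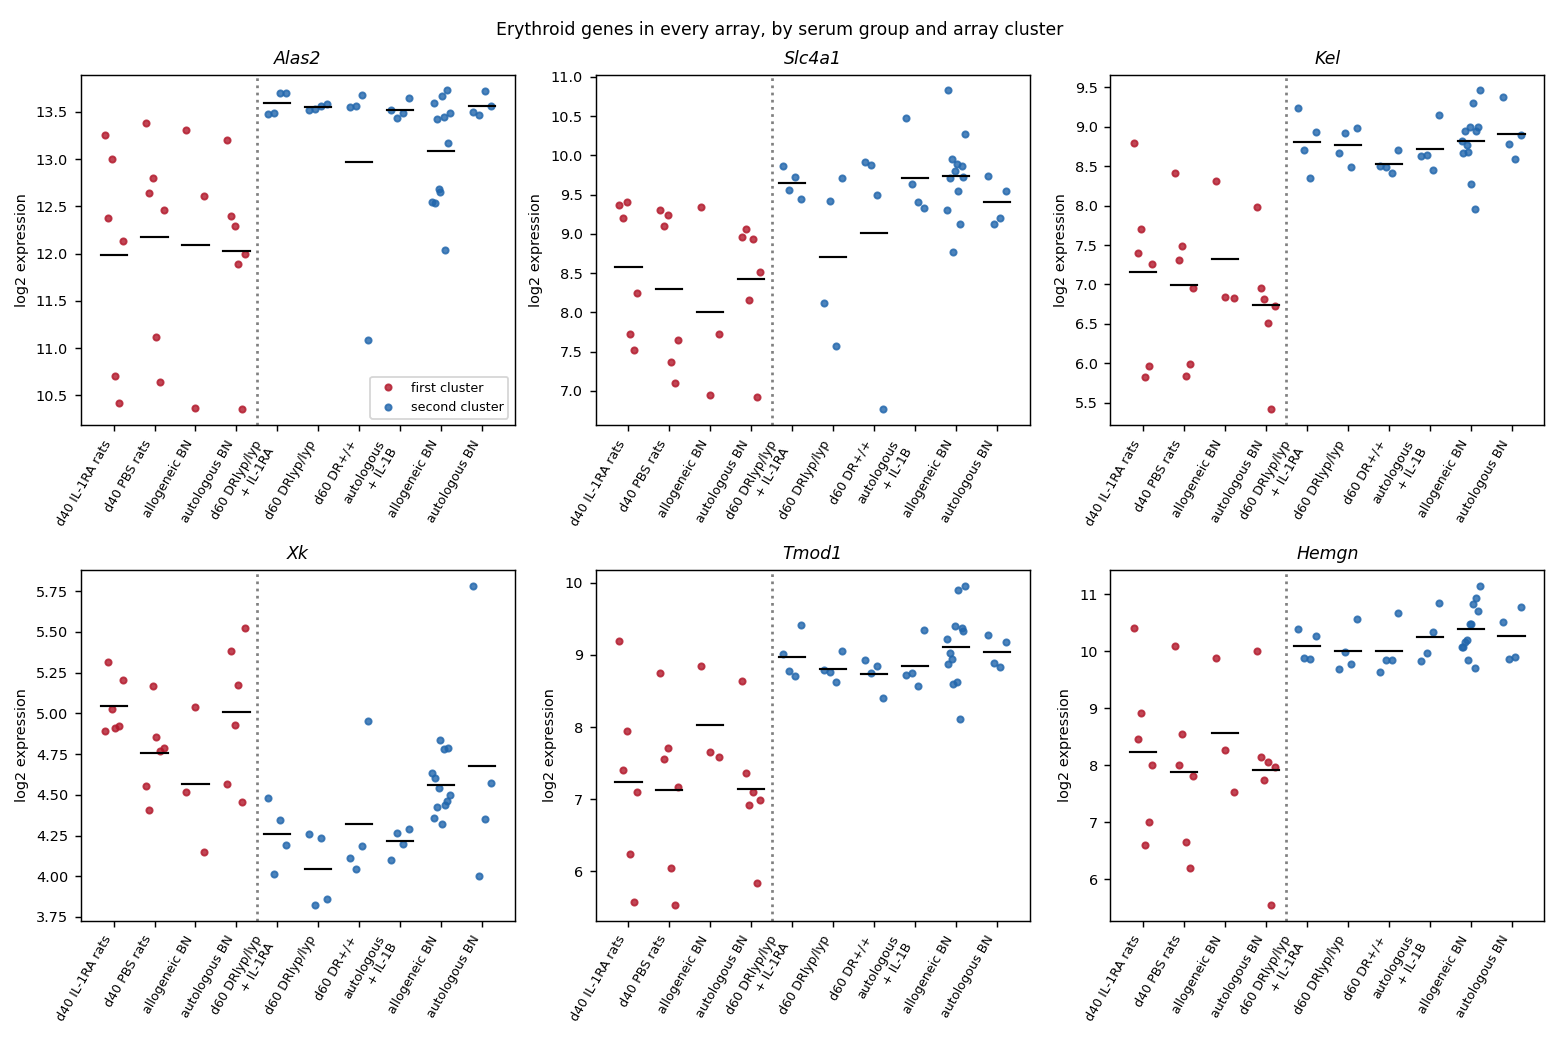
Each point is 1 array, placed by its log2 expression on the vertical axis and by serum group on the horizontal axis, with the first cluster in red left of the dotted line and the second cluster in blue. Black bars are group means. Alas2, Slc4a1, Kel, Tmod1 and Hemgn scatter over several units in the first cluster, whereas most second-cluster arrays sit in a narrow band near the top. Each panel has its own scale, which does not start at 0.

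Most other erythroid genes were lower in first-cluster autologous cultures too, in lists chosen with earlier results of these data known. All 7 measured globin-related genes were lower, with a median of -0.80, including Ahsp, the chaperone of alpha globin, at -2.33 and the embryonic globin Hbe1 at -1.69. Hbe1, Hbz and Hbg1 were dim, with median levels of 4.66, 4.41 and 3.71 in the first cluster. The adult globins stood near the top of the array's scale: Hbb ran from 13.57 to 14.38 in the first cluster, with a median of 14.14, and from 12.88 to 14.38 in the second, with a median of 14.30, while the highest value anywhere in the table was 14.63. Differences in adult globin may be compressed at that level.

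Of 14 genes for heme synthesis and iron, 13 were lower (median -0.52). Fech, which inserts iron into the porphyrin ring, differed by -1.39, the mitochondrial carriers Slc25a39 and Slc25a37 by -1.63 and -1.25, and Cpox, an earlier enzyme of the pathway, went the other way at +1.40. Of 18 genes of the membrane skeleton and surface, 10 were lower and 8 higher (median -0.49). Among the lower were the blood group gene Rhd at -3.18, the skeleton genes Epb42 and Add2 at -2.09 each and the water channel Aqp1 at -1.88. Over all arrays of a cluster, Art4 and Kcnn4 went the other way. Their median levels were 8.98 and 9.85 in the first cluster and 7.72 and 8.53 in the second. Of 10 transcription factors and receptors of the lineage, 7 were lower (median -0.87), led by Gata1 at -2.56 and Klf1 at -1.20. Of 14 genes for late red-cell enzymes and turnover, 13 were lower (median -1.28), with Glrx5, needed for iron-sulfur clusters, at -1.67 and the peroxide-removing Prdx2 at -1.53.

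Markers of other cells also differed between the clusters in the same autologous arrays. All 6 markers of dividing cells were lower, with a median of -1.14. The median was -0.49 for neutrophil markers (8 of 9 lower), -0.48 for platelet markers (9 of 11 lower), -0.54 for monocyte markers (5 of 7 lower), -0.59 for natural killer cell markers (6 of 6 lower) and -0.64 for B-cell markers (3 of 3 lower). T-cell markers had a median of +0.11, with 4 of 8 lower, and in allogeneic serum a median of +0.71, with 1 of 8 lower. Over all arrays of a cluster, Cd3g, a subunit of the T-cell receptor complex, had a median level of 11.45 in the first and 10.63 in the second, and Cd3e, another subunit, 9.55 in both. Some listed markers were dim, such as the monocyte and macrophage gene Cd163 with a median level of 3.25 and the red-cell gene Rhag with 4.42 in the first cluster. The markers of dividing cells were dim as well. Their mean level per array had a median of 4.86 in the first cluster and 5.72 in the second. The part of cell makeup or of array handling in the erythroid difference was not tested.

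**Figure D2:**
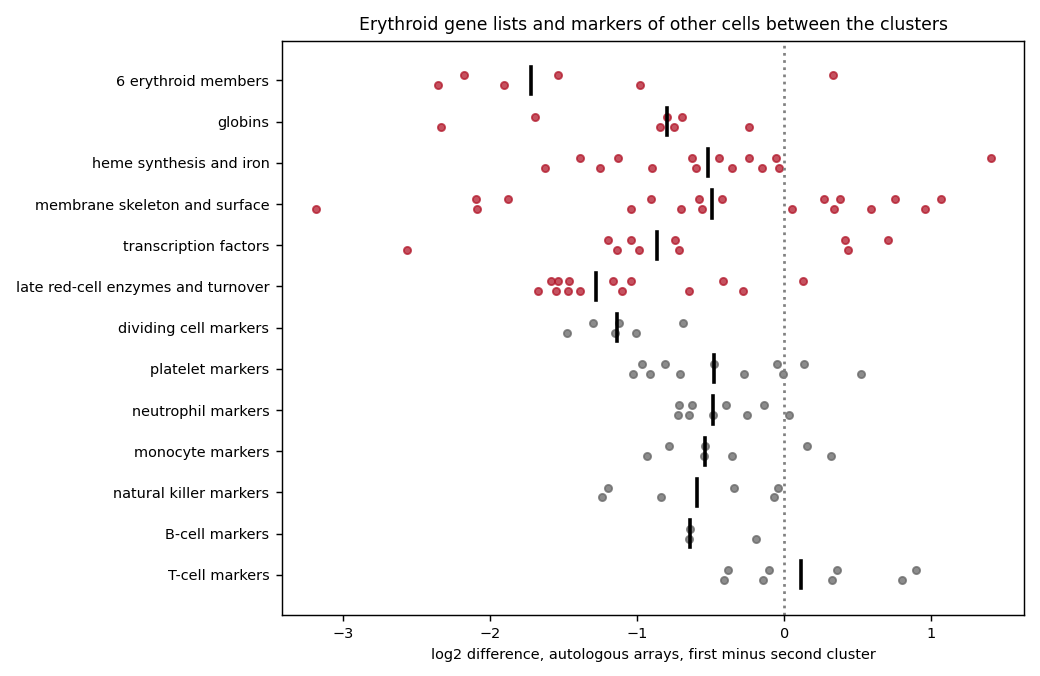
Each point is 1 gene, placed by its log2 difference between autologous BN arrays of the first cluster and those of the second (first minus second, n = 6 and n = 4), and rows are gene lists. Red points are the 6 members and other erythroid lists, grey points are markers of other cells, and black bars are list medians. The members have the lowest median, -1.72, with Xk alone to the right of 0, and dividing-cell markers at -1.14 stand closer to the erythroid lists than T-cell markers at +0.11.

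Within the first cluster, 5 of the 6 erythroid genes varied far more with the replicate number in the labels than with the serum. Over the 18 arrays of day 40 IL-1RA, day 40 PBS and autologous serum, which share numbers 1 to 6, the number accounted for 92.9% of the variance of Alas2, 92.4% for Tmod1, 89.7% for Kel, 88.8% for Hemgn and 76.3% for Slc4a1. The serum group accounted for 0.729%, 0.248%, 3.62%, 1.46% and 1.94% of it in the same order of genes. For Xk the number took 34.3% and the serum 16.9%. These are raw shares, and the number has more levels than the serum, so it takes more even of random spread. Whether the shares of Xk exceed that was not tested. Over all genes the medians were 53.4% for the number and 6.58% for the serum, so arrays of a number resembled each other in most genes, and the median standard deviation was 0.968 for the members beside 0.222 for all genes. The labels do not say what a number stands for.

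Alas2 with number 1 was at 13.26 in day 40 IL-1RA, 13.38 in day 40 PBS and 13.20 in autologous serum, and with number 5 at 10.42, 10.64 and 10.35. The gap between numbers was far wider than that between the 3 sera of a number. Hemgn was at 10.40, 10.10 and 10.01 with number 1, and at 7.002, 6.202 and 5.55 with number 5, in the same order of sera. The sera of a number did not always lie close together, as number 5 shows for Hemgn. With number 4, Hemgn was at 6.60 in day 40 IL-1RA and 6.66 in day 40 PBS serum, against 8.05 in autologous serum, and Slc4a1 at 7.72 and 7.37, against 8.93. With number 3, Slc4a1 was at 9.41 and 9.24 in those day 40 sera, against 8.16 in autologous serum.

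The heme, membrane, skeleton and nuclear genes of the set were high or low together in this cluster. Deviations from group means correlated between r = 0.84 and r = 0.97 for every pair among Alas2, Slc4a1, Kel, Tmod1 and Hemgn over 21 arrays, which share their normalization and replicate numbers. Xk had r between -0.09 and 0.10 with each of them. Among non-members, the highest r with the mean z-score of the 6 genes in this cluster was that of Bpgm, the enzyme that makes the bisphosphoglycerate of red cells, at 0.98, followed by Slc22a4 at 0.98, Ybx3 and Glrx5 at 0.97 and Mkrn1 at 0.97.

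Other cells moved with the numbers as well. Number 1, highest for Alas2, Hemgn, Kel and Tmod1, was also highest for neutrophil genes: S100a9, a granule protein, was at 9.12 to 9.59 with number 1 and at 4.45 to 7.83 with the others. The 9 measured neutrophil markers averaged 6.00 to 6.13 with number 1 and 4.22 to 5.24 with numbers 2 to 6. The 7 monocyte markers were likewise highest with number 1, at 6.98 to 7.30, against 5.75 to 6.85 with numbers 2 to 6. Platelet markers were at 9.51 to 9.87 with number 1 and at 9.74 to 10.81 with the others, and the 8 T-cell markers at 8.84 to 9.08 and 8.86 to 9.60. Number 5, lowest for Alas2, had neutrophil markers at 4.43 to 4.52, which were above those of number 2 at 4.22 to 4.33. The actin 3′ minus 5′ difference overlapped between number 1 (3.31 to 3.76) and number 5 (3.20 to 4.18). The part of these in the erythroid levels was not tested.

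**Figure D3:**
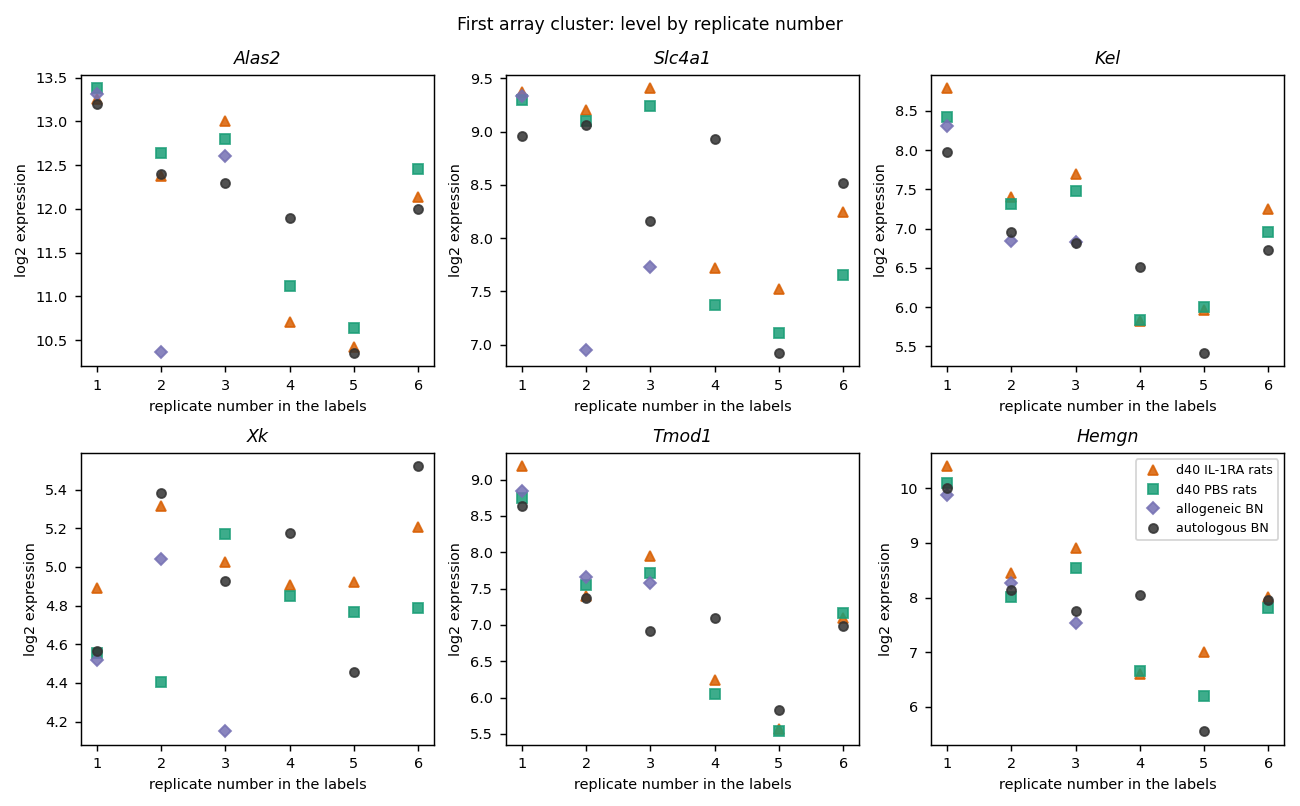
Log2 expression (vertical axis, a scale per gene) of the 21 first-cluster arrays by the replicate number in the labels (horizontal axis), with a symbol per serum. For Alas2, Slc4a1, Kel, Tmod1 and Hemgn each symbol at number 1 lies above each symbol at number 5, and for Xk those numbers overlap. Allogeneic replicate 2 is the low diamond for Alas2 and Slc4a1.

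No member was called in any comparison of the day 40 sera. In IL-1RA-treated against PBS-treated rats, Hemgn averaged 8.23 ± 1.38 and 7.89 ± 1.39 (SD, n = 6 each), with a lowest, median and highest value of 6.60, 8.23 and 10.40 with IL-1RA and 6.202, 7.91 and 10.10 with PBS. The groups overlapped almost fully, and Hemgn was higher with IL-1RA in 5 of the 6 same-numbered pairs, Slc4a1 in 6 and Alas2 in 1. By limma with Benjamini-Hochberg adjustment over all probe sets, 0 of the 9 member probe sets passed an adjusted p of 0.05 here, and 0 had an unadjusted p under 0.05. When arrays were paired by number, 4 of the 9 had an unadjusted p under 0.05, and 3 of all probe sets were called. The share of all probe sets with an unadjusted p under 0.05 was not counted in the paired fit. Without pairing, 0.00322% of all probe sets were called, which is 1 probe set, and 612 of 31042 had an unadjusted p under 0.05. The 6 log2 differences ran from -0.19 for Alas2 to +0.34 for Hemgn, with a median of +0.22 beside -0.03 over all genes, and the 95% interval of Hemgn ran from -0.66 to 1.35.

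Day 40 PBS serum against autologous serum gave 0 of 9 member probe sets called by limma, 0 with an unadjusted p under 0.05, and 0% of all probe sets called. The differences lay between -0.25 for Xk and +0.26 for Kel, with a median of -0.02 beside +0.04 over all genes. Alas2 averaged 12.18 ± 1.06 with PBS-rat serum and 12.02 ± 0.94 with autologous serum (SD, n = 6 each), a difference of 0.15 with a 95% interval from -0.75 to 1.06. With arrays paired by number, the interval of the same difference ran from -0.14 to 0.44.

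Allogeneic against autologous serum could be compared in each cluster. In the first cluster 0 of 9 member probe sets were called by limma, 0 had an unadjusted p under 0.05, and 1.07% of all probe sets were called (0.116% higher and 0.954% lower). Tmod1 had the widest difference there at +0.89 (8.85, 7.66 and 7.58 in allogeneic serum, against a lowest, median and highest of 5.83, 7.04 and 8.64 in autologous serum, adjusted p = 0.535 by limma). The ranges overlapped, and the allogeneic arrays carry only numbers 1 to 3, for which Tmod1 in autologous serum was at 8.64, 7.36 and 6.92. Against those same-numbered arrays the difference of Tmod1 was +0.39, and those of Alas2 and Hemgn changed sign, to -0.54 and -0.07 (none called by limma). In the second cluster 0 of 9 were called by limma, 0 had an unadjusted p under 0.05 and 0.00966% of all probe sets were called. The differences there ran from -0.48 for Alas2 to +0.33 for Slc4a1, with a median of -0.01 beside -0.06 over all genes. The allogeneic effect was also compared between the clusters: 0 of 9 member probe sets passed (limma interaction term, smallest adjusted p = 0.402), 1 had an unadjusted p under 0.05, and 0.696% of all probe sets passed.

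Alas2 in the second-cluster allogeneic arrays ran from 12.04 to 13.73, with a median of 13.30, against 13.46 to 13.72 in autologous serum. Of the 12 allogeneic arrays, 5 lay between 12.04 and 12.69, apart from the autologous arrays, and the others between 13.17 and 13.73. Replicate 12 was the lowest of the 12 for Alas2 (12.04), Kel (7.96), Tmod1 (8.11) and Hemgn (9.71), and the spread of all probe sets within its array was the smallest of the 53 (SD 1.81).

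Day 60 DR+/+ serum against autologous serum was the comparison with the most calls, 1.35% of all probe sets (0.97% higher and 0.377% lower), and 0 of the 9 member probe sets were called by limma. The dimmer Kel probe set alone had an unadjusted p under 0.05. All 6 genes had a lower mean with DR+/+ serum, from -0.59 for Alas2 to -0.26 for Hemgn, with a median of -0.37 beside -0.06 over all genes. In the same comparison platelet markers had a median of -1.12 (11 of 11 lower, 2 called) and monocyte markers of +0.80 (6 of 7 higher, 1 called), and their part in the member differences was not tested. The differences of Alas2 and Slc4a1 rested on 1 array. Alas2 was at 13.56, 13.56, 13.68 and 11.09 in DR+/+ replicates 1 to 4, and Slc4a1 at 9.92, 9.88, 9.49 and 6.77, so that replicate 4 was low in both, while it had the highest Hemgn of the group (10.68 against 9.64 to 9.85). Without replicate 4 the difference from autologous serum was +0.03 for Alas2, +0.36 for Slc4a1 and -0.49 for Hemgn.

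Among the 63 measured genes of the other erythroid lists, 1 was called for DR+/+ serum, a share of 1.59% beside the 1.35% of all probe sets, and none in the other 7 comparisons. Bcl11a, the repressor of fetal globin in humans, was higher by 0.83 (SE 0.22, adjusted p = 0.0388 by limma; 7.62 with DR+/+ serum and 6.79 with autologous serum, n = 4 each). A second Bcl11a probe set was higher by 1.41 (adjusted p = 0.0278 by limma). The first call was lost without DR+/+ replicate 1 or 4, or autologous replicate 7 or 8 (adjusted p = 0.0795 to 0.201), with differences of 0.67 to 0.82.

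Day 60 DRlyp/lyp against DR+/+ serum gave 0 of 9 member probe sets called by limma, 0 with an unadjusted p under 0.05, and 0% of all probe sets called, with 1864 probe sets at an unadjusted p under 0.05. Alas2 stood at 13.52, 13.53, 13.56 and 13.59 with DRlyp/lyp serum, close together, and the mean difference of +0.58 turned to -0.05 without DR+/+ replicate 4. Slc4a1 was at 8.12, 9.42, 7.58 and 9.71 with DRlyp/lyp serum, so replicates 1 and 3 were low there while their Alas2 was not, and its difference of -0.31 became -1.06 without that DR+/+ array. Hemgn averaged 10.01 ± 0.39 with DRlyp/lyp and 10.00 ± 0.46 with DR+/+ serum (SD, n = 4 each).

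Adding IL-1RA to day 60 DRlyp/lyp serum gave 0 of 9 member probe sets called by limma, 0 with an unadjusted p under 0.05, and 0% of all probe sets called, with 956 at an unadjusted p under 0.05. Slc4a1 had the widest difference, +0.94 with a 95% interval from -0.16 to 2.04 (adjusted p = 1.00 by limma). With arrays paired by number, the interval of that difference ran from 0.19 to 1.70 (unadjusted p = 0.0193, adjusted p = 0.348 by limma). In that fit 1 of the 9 member probe sets had an unadjusted p under 0.05, and the share over all probe sets was not counted. The dimmer Slc4a1 probe set differed there by +0.51, with an interval from -0.005 to 1.02. With IL-1RA the brighter Slc4a1 probe set was at 9.87, 9.56, 9.73 and 9.44, all close together, against the 8.12, 9.42, 7.58 and 9.71 already given. The other 5 genes differed by +0.04 to +0.21.

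Adding IL-1B to autologous serum gave 0 of 9 called by limma and 0% of all probe sets, with 1121 probe sets at an unadjusted p under 0.05. Xk was the 1 member among these, at 4.10, 4.27, 4.20 and 4.29 with IL-1B, against 5.78, 4.00, 4.35 and 4.57 without it (difference -0.46, adjusted p = 1.00). The groups overlapped, and the difference came largely from autologous replicate 7, the highest Xk value of all 53 arrays. The other 5 genes differed by -0.20 to +0.31.

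**Figure D4:**
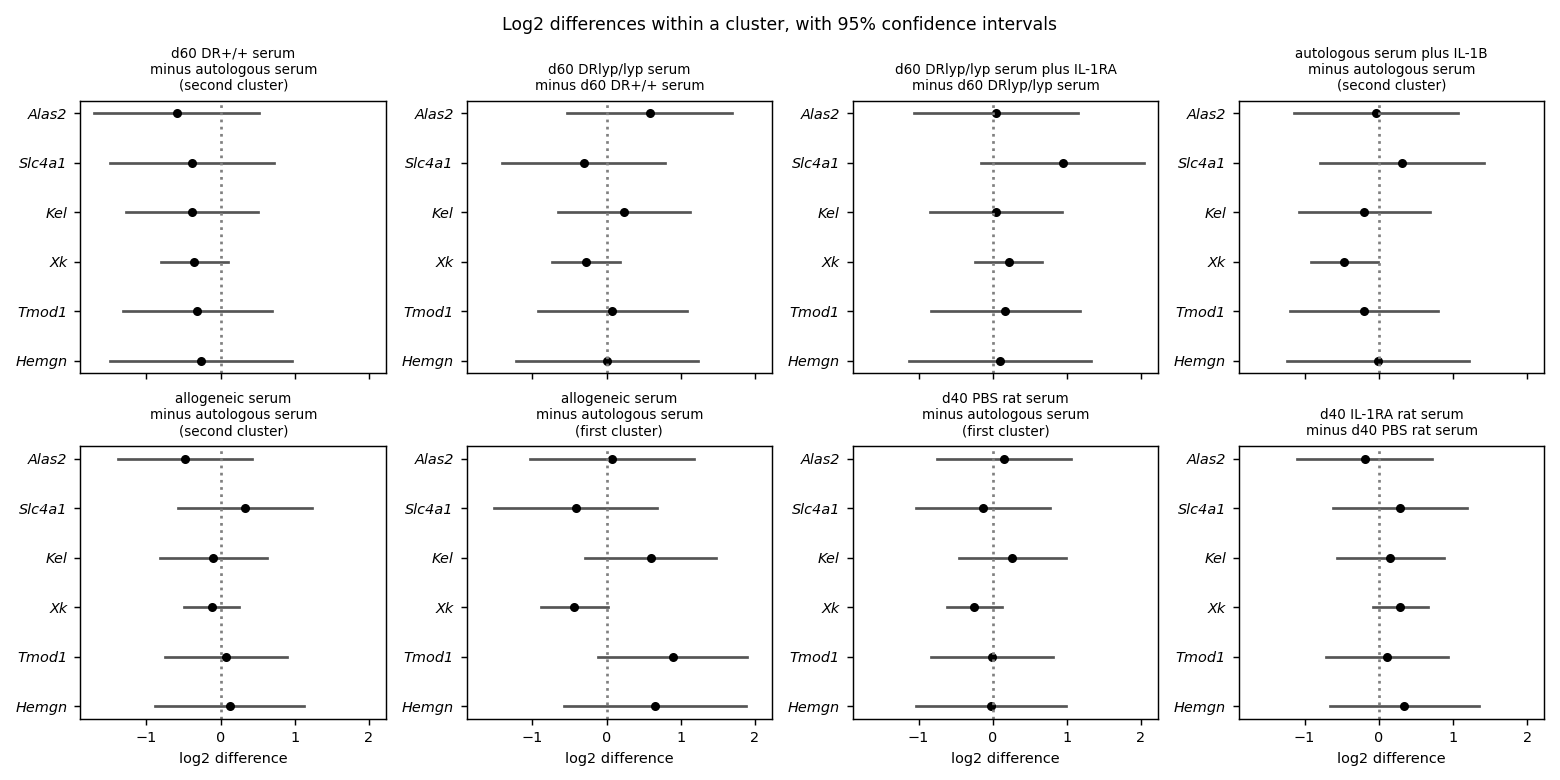
Points are log2 differences of the 6 genes in the 8 comparisons within a cluster, the first-named serum minus the second, and lines are 95% confidence intervals from limma, with spread shared over all 53 arrays. That spread takes in the first cluster, where most members varied more than in the second. An interval therefore need not match the spread of the arrays compared. All but 1 of the 48 intervals span 0, the exception being Xk with IL-1B added (-0.92 to -0.01). The intervals of Alas2, Slc4a1, Tmod1 and Hemgn are over 1.5 units wide. The fit shown did not pair arrays by number. In the paired fit of IL-1RA-treated against PBS-treated rats, the intervals of Kel and Tmod1 span 0. Those of Hemgn (0.10 to 0.58), Slc4a1 (0.08 to 0.49), Xk (0.03 to 0.55) and Alas2 (-0.36 to -0.03) do not. Neither does that of Slc4a1 with IL-1RA added to DRlyp/lyp serum (0.19 to 1.70). No member was called in the paired fit.

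When the groups were ranked by mean for each gene in each cluster, all 48 pairs of neighbours in rank had overlapping ranges. Groups further apart in rank did not always overlap: Xk in the second cluster ran from 4.32 to 4.84 with allogeneic serum, while its highest values were 4.29 with IL-1B and 4.26 with DRlyp/lyp serum. Alas2, for example, averaged 13.59 with DRlyp/lyp serum plus IL-1RA, 13.56 with autologous, 13.55 with DRlyp/lyp and 13.52 with IL-1B serum, then 13.08 with allogeneic and 12.97 with DR+/+ serum.

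Ignoring the clusters changed the sign of several values. Against all 10 autologous arrays the log2 difference of DRlyp/lyp serum was +1.15 for Hemgn, +1.16 for Kel and +0.91 for both Alas2 and Tmod1. Against the 4 autologous arrays of its own cluster it was -0.26 for Hemgn, -0.15 for Kel, -0.01 for Alas2 and -0.24 for Tmod1. Slc4a1 was at -0.11 and -0.70 in the same 2 settings, and Xk at -0.83 and -0.63. In the same way the median over the 6 genes was +0.92 for IL-1B serum and +0.58 for DR+/+ serum against all autologous arrays, and -0.12 and -0.37 within the cluster.

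In the second cluster the members did not all go together. Over its 32 arrays, deviations from group means correlated at r = 0.84 between Kel and Tmod1, 0.71 between Hemgn and Kel and 0.65 between Hemgn and Tmod1, and at 0.71 between Alas2 and Slc4a1. Hemgn had r = 0.04 with Alas2 and -0.02 with Slc4a1. This split rested in large part on DR+/+ replicate 4. Without it, Hemgn had r = 0.50 with Alas2 and 0.33 with Slc4a1, and Alas2 with Slc4a1 had 0.41, while Kel with Tmod1 had 0.89 and Hemgn with Tmod1 0.78.

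Both arrays with the smallest actin 3′ minus 5′ difference had low Alas2 and Slc4a1 but not low Hemgn. DR+/+ replicate 4 had an actin difference of 1.13, the lowest of the second cluster. Allogeneic replicate 2, at 0.76 the lowest of the first, had Alas2 at 10.36 and Slc4a1 at 6.95, against 12.37 to 12.64 and 9.06 to 9.20 with the other sera of number 2. Its Hemgn, at 8.27, lay within 8.01 to 8.45, the range of those sera. The part of RNA length in these values was not tested beyond a fit with the actin difference as a covariate, in which 0 member probe sets were called in each of the 8 comparisons.

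**Figure D5:**
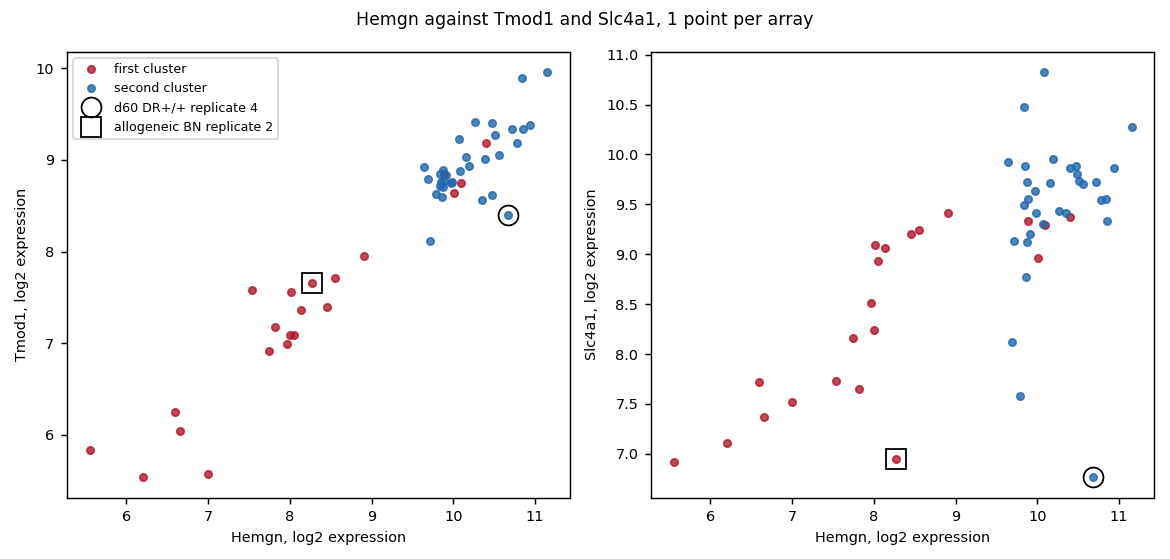
Hemgn (horizontal axis) against Tmod1 (left) and Slc4a1 (right), in log2 expression with 1 point per array, red for the first cluster and blue for the second. Hemgn and Tmod1 fall along a single band through both clusters. For Slc4a1, the circled DR+/+ replicate 4 and the boxed allogeneic replicate 2 lie far below the arrays with like Hemgn, at 6.77 and 6.95.

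Replicate numbers explained less among the 3 day 60 sera, which share numbers 1 to 4. The number took 65.5% of the variance of Hemgn and 44.7% of that of Kel, beside a median of 47.1% over all genes, and 13.8% to 25.8% for Alas2, Slc4a1, Tmod1 and Xk. These raw shares include DR+/+ replicate 4. Alas2 had an SD of 0.04, 0.04 and 0.08 within numbers 1 to 3 and of 1.48 within number 4, which holds that array. Slc4a1 was spread within other numbers too, with SDs of 1.02, 0.24, 1.18 and 1.63 within numbers 1 to 4. Shares without that array were not computed. Hemgn with number 4 was at 10.26 to 10.68 across the 3 sera, with numbers 2 and 3 at 9.79 to 9.98, and with number 1 at 9.64 to 10.39, which overlaps the other numbers.

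The genes whose pattern was most like the mean z-score of the 6 members in both clusters were found over the 21 and 32 arrays, after group means were subtracted. In all, 10 genes outside the set were among the 50 with the highest r in both. Epb42, which links the anion exchanger to the skeleton, had r = 0.94 in the first cluster and 0.85 in the second, and Tfdp2, a partner of E2F cell-cycle factors, had 0.97 and 0.84. The others were Procr, Cdr2, Gch1, Slc22a4, Pttg1, Fam220a, Ccndbp1 and Tspan8, with r from 0.91 to 0.98 in the first cluster and from 0.71 to 0.78 in the second. Gata1 was second in the second cluster at 0.85 and had 0.91 in the first. These arrays share normalization and numbers, so the values of r describe likeness in these libraries only.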

How the data were processed

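The deposited table held log2 expression per probe set, made by the authors with RMA and Partek 6.2, per the submitters' processing notes, with scan dates and the role of each tool not given in the sources used here. This method corrects background, normalises between arrays and compresses differences near background. It held 31099 probe sets, of which 57 controls were left out. Probe sets were named from the platform annotation: 20826 had 1 symbol, 436 several and 9780 none. Precision is limited by the number of arrays.

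Arrays were clustered (Ward) without erythroid probe sets. A limma 3.58.1 fit (R 4.3.3) of 10 means, the 8 groups with autologous and allogeneic serum split by cluster, used all 53 arrays and moderated variances with a trend. Each probe set had 1 spread for both clusters, although Alas2 in autologous serum had an SD of 0.94 in the first and 0.11 in the second. Intervals and p-values of the members in the second cluster therefore need not match the spread of the arrays compared. Benjamini-Hochberg adjustment ran over the 31042 probe sets, with calls at an adjusted p under 0.05. On simulated data for these comparisons, 77% to 89% of the 1-unit shifts were found again, and 98% to 100% of the 2-unit shifts, with independent noise. The shifts were put on randomly drawn probe sets, each with its own spread. In first-cluster arrays the median SD was 0.222 over all genes and 0.968 over the members. These rates therefore do not describe the more variable members. Variance shares came from a 2-way sum of squares by replicate number and serum, with no correction for the number of levels. The members, lists and tests were chosen with earlier results of these data known. Named genes are the members, up to 4 of the largest per list, and those most like the members. The clusters come from the values, so differences between them have no test. Same-numbered arrays deviated together, at r above 0.1 for every shared number, in 4 of the 6 comparisons with shared numbers (lowest r 0.101 to 0.488). The labels do not state that numbers pair arrays. The reported fit, its calls and its intervals are unpaired. Pairing by number entered only a separate fit, run for the 6 comparisons and named as paired where its values are given. Other scalings, filters, fits and left-out arrays were tried. Sequences are RefSeq's (GRCr8), and 5 of the 6 genes were matched to a promoter entry.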

Additional observations from a re-analysis of the deposited data

Results flagged for a closer look

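Of 72 sets of 4 to 10 arrays (8 sets for each of the 9 probe sets), 6 had an array far from the others of its group, where chance gives about 1 in 20. Replicate 4 with day 60 DR+/+ serum accounts for 3: Alas2 at 11.09 against 13.56 to 13.68 in the other 3 arrays, Slc4a1 at 6.77 against 9.49 to 9.92, and Xk at 4.95 against 4.05 to 4.19. With IL-1B in autologous serum, the dimmer Slc4a1 probe set was at 8.66 in replicate 1 against 7.90 to 7.98, and the dimmer Kel probe set at 4.00 in replicate 3 against 4.29 to 4.34. With DRlyp/lyp serum, the dimmer Tmod1 probe set was at 6.74 in replicate 3 against 7.05 to 7.11. The causes were not tested.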

How the results depend on the processing

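Counts of called member probe sets were 0 in 76 of 78 settings other than the one reported, over the 8 comparisons. In the other 2, allogeneic against autologous serum fitted without the clusters, 3 were called (Tmod1, Hemgn and Kel, adjusted p = 0.0224 to 0.0326 by limma) beside 12614 of all probe sets. These 2 are the same fit, listed once for each cluster. The settings include a cutoff of 0.01 on the reported fit, for which a count of 0 was fixed in advance. They also include a filter on mean level that removed Xk and the dimmer Kel probe set. In 81 fits without 1 array the count was 0 (lowest 0, highest 0). The replicate block, with pairing by number, also left 0 called in the 6 comparisons that share numbers. In that fit 4 of the 9 had an unadjusted p under 0.05 for day 40 IL-1RA against PBS rats: Hemgn at 0.34 (interval 0.10 to 0.58), Xk at 0.29 (0.03 to 0.55), Slc4a1 at 0.28 (0.08 to 0.49) and Alas2 at -0.19 (-0.36 to -0.03), with adjusted p = 0.294 to 0.435 by limma. The share of all probe sets with an unadjusted p under 0.05 was not counted in it. For first-cluster allogeneic serum, the deviations of same-numbered arrays correlated at a mean r of 0.35, against -0.06 for other pairs of arrays. Of the 3 shared numbers, 2 had r above 0.1, and the lowest r was 0.06. There the block gave Tmod1 0.39, Alas2 -0.54 and Hemgn -0.07, against 0.89, 0.07 and 0.65 without it. No paired analysis was possible for DR+/+ or IL-1B serum because the second-cluster autologous arrays share no number with them. The median cluster difference, -1.72, was -2.43 with the actin covariate, -1.59 after centring and -1.44 with all probe sets of a gene averaged, and ran from -1.99 to -1.43 without 1 array. Calls over all probe sets varied more: for DR+/+ serum, 418 as reported, 0 to 987 under other settings and 43 to 1118 without 1 array, and for allogeneic serum in the first cluster, 332, 0 to 12614 and 0 to 978. Ward clustering on all probe sets placed all 53 arrays alike, while average linkage set DR+/+ replicate 4 apart. The Bcl11a call in DR+/+ serum was lost after a second quantile normalisation (adjusted p = 0.0647), without the clusters (0.571) and with only the arrays compared (0.403), all by limma. The correlations and differences without that array were added after seeing the data. Intervals over 1.5 units wide limit what a count of 0 shows. In the reported, unpaired fit Alas2, Slc4a1, Tmod1 and Hemgn had them in every comparison and Kel in some, such as -1.27 to 0.50 for DR+/+ against autologous serum.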
